A study of Arabidopsis thaliana with 12 samples.

Results

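NdhS, NdhN and AT1G76450 are 3 nuclear genes of Arabidopsis thaliana whose proteins work in or at the thylakoid, the inner chloroplast membrane that carries the photosynthetic light reactions. They were taken from a hybridization array of 3439 features as the features that the platform annotation assigns to exactly 1 gene, being NdhS, NdhN or the PsbP-domain protein AT1G76450. Each of the 3 had 1 such feature, out of 692 features of a single gene. They were chosen by their annotation together with their measured psbs and WT values, that is, with the contrast of mutant and wild type in view. All differences of these 3 genes between the groups are therefore descriptions without a test, and a count of members that differ supports nothing. The lists of related genes used further below were also chosen with earlier results of these data known. Their adjusted p-values are therefore not independent of that choice and are given as description.

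Total RNA of 6 psbs samples and 6 wild-type (WT) samples was hybridized, both of ecotype Columbia 0. The psbs mutant is without PsbS, or PSII-S, which the labels place in photosystem I although it is known as a photosystem II protein needed for the rapid dissipation of excess light as heat. No allele, tissue, age, light regime or treatment is given, and nothing in the labels tells whether replicates were separate plants, so SDs and p-values may measure technical spread. The values are linear intensities from 0 to 100, 1 per feature and sample, and the number of arrays limits their precision.

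The chloroplast NDH complex is a large enzyme of the thylakoid membrane that takes electrons from reduced ferredoxin and passes them to plastoquinone, which lets electrons cycle around photosystem I. Part of its subunits are encoded in the plastid and part in the nucleus, and NdhS and NdhN are of the nuclear kind. NdhS provides the site that interacts with ferredoxin, and NdhN belongs to the part of the complex that faces the stroma. PsbP-domain proteins are relatives of PsbP, an extrinsic protein on the lumen side of photosystem II that helps oxygen evolution. Several members of that family serve in assembly of photosynthetic complexes or, in the NDH complex, as subunits.

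The array as a whole differed between the groups. The median intensity of a sample was 0.0233 to 0.0361 in psbs and 0.304 to 0.379 in WT, and 27.0% to 34.9% of features were at exactly 0 in psbs samples, against 13.0% to 13.7% in WT samples. Because of this, each gene is given below by its deposited intensity, by its multiple of the sample's median and by its place within the sample. The place is the percentage of all 3439 features with a lower value in the same sample, and it does not change under any scaling that keeps the order of features. Differences in log2 units come from limma fitted to quantile-scaled values over the 3359 features above 0 in at least 1 sample. For NdhS and AT1G76450 psbs samples 1 and 2 were lower in intensity than the other psbs samples, and the values without them are given beside the results. These 2 samples also differed as a whole, with 33.15% and 34.92% of features at 0, against 27.04% to 28.58% in psbs replicates 3 to 6. As a multiple of the sample median NdhS was at 61.6 and 61.1 in them, within the 53.7 to 65.2 of the other psbs samples. AT1G76450 was at 7.06 and 9.64 in them, below the 12.6 to 14.4 of the others. A lower share of cells that express a gene and less RNA of it per cell cannot be told apart in such samples.

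NdhS was a bright feature in both groups and was lower in psbs by intensity and by place. Its intensity was 1.504, 1.42, 2.15, 2.28, 1.92 and 2.18 in psbs replicates 1 to 6, against 6.19, 6.33, 6.85, 6.95, 5.06 and 5.27 in WT replicates 1 to 6. The highest psbs sample lay below the lowest WT sample, so the groups did not overlap, as was the case for 67.3% of all tested features. The mean was 1.91 ± 0.365 in psbs and 6.11 ± 0.788 in WT (SD, n = 6 each), a 3.20-fold lower intensity in psbs. The 2 lowest psbs values were those of replicates 1 and 2, and without them the psbs mean was 2.13 ± 0.151.

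The place of NdhS moved little. A mean of 95.3% ± 0.801 of features were lower than NdhS in psbs samples and 98.1% ± 0.171 in WT samples (SD, n = 6 each). Counted from the brightest feature, NdhS stood at places 140 to 201 in psbs samples and at places 56 to 69 in WT samples. The groups did not overlap by place either, as for 22.8% of all tested features in this direction. Over 90% of features were lower than NdhS in every sample. Against the median of its own sample the order of the groups turned: NdhS was 53.7 to 65.2 times the sample median in psbs and 16.3 to 20.7 times in WT.

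AT1G76450 had the largest fold difference in intensity of the bright members, and it too was lower in psbs. Its intensity was 0.172, 0.224, 0.454, 0.444, 0.454 and 0.518 in psbs replicates 1 to 6, against 11.04, 10.66, 7.01, 7.09, 6.59 and 6.74 in WT replicates 1 to 6. All psbs samples lay under 1, while all WT samples lay well above it. The groups thus did not overlap, as was the case for 67.3% of all tested features in this direction. The mean was 0.378 ± 0.142 in psbs and 8.19 ± 2.08 in WT (SD, n = 6 each), and without psbs replicates 1 and 2 the psbs mean was 0.467 ± 0.0340. The samples numbered 1 and 2 were the lowest of the psbs group and the highest of the WT group.

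**Figure D1:**
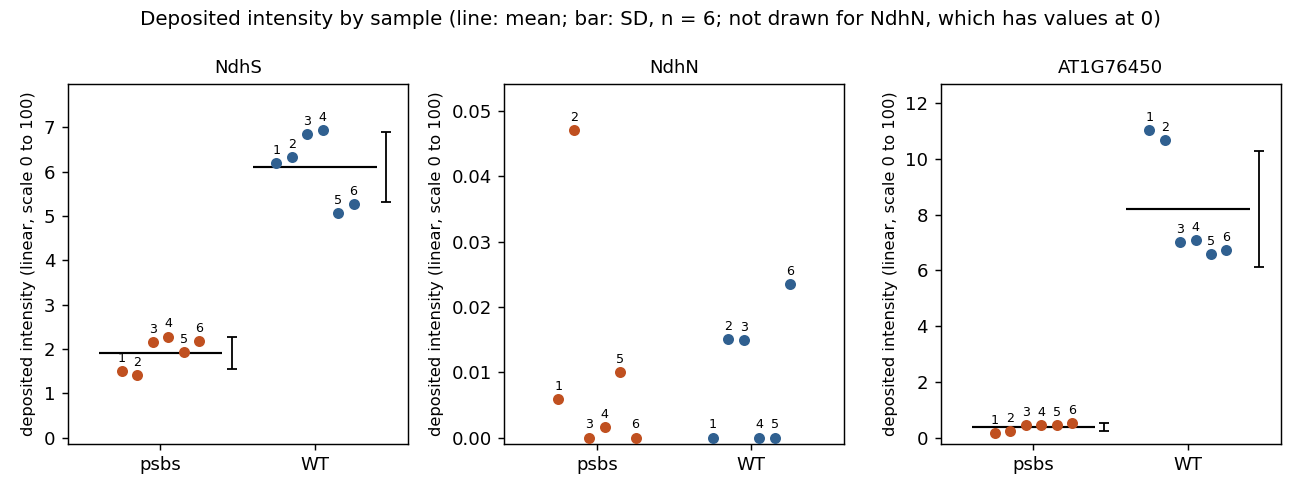
Deposited intensity (linear, scale 0 to 100) of NdhS, NdhN and AT1G76450 in each sample, with replicate numbers beside the points, psbs left and WT right in each panel; lines are group means and bars are SD (n = 6), drawn for NdhS and AT1G76450 only. For NdhS and AT1G76450 all psbs samples lie below all WT samples, as for 67.3% of all tested features. NdhN lies between 0 and 0.0471 in psbs and between 0 and 0.0235 in WT.

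By place AT1G76450 moved further than NdhS. A mean of 86.5% ± 4.22 of features were lower than AT1G76450 in psbs samples and 98.6% ± 0.211 in WT samples (SD, n = 6 each). From the brightest feature it stood at places 345 to 695 in psbs samples and at places 39 to 56 in WT samples. It was 7.06 to 14.4 times the sample median in psbs and 21.1 to 29.2 times in WT, so it was lower in psbs by intensity, by place and by multiple of the median. In psbs replicates 1 and 2 it stood lowest, with 79.8% and 82.6% of features below it, against 88.5% to 90.0% in replicates 3 to 6.

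NdhN had an intensity of 0.0471 or less in every sample, although 0.0471 was 2.03 times the sample median in psbs replicate 2. Its intensity was 0.00588, 0.0471, 0, 0.00164, 0.00996 and 0 in psbs replicates 1 to 6, against 0, 0.0151, 0.0149, 0, 0 and 0.0235 in WT replicates 1 to 6. It was thus listed at 0 in 2 psbs samples and in 3 WT samples, and the groups overlapped. psbs replicate 2 held the highest value, and every other psbs value was lower than the 3 WT values above 0. An exact 0 may be a failed estimate, so no mean intensity is given for this gene. Among WT samples 87.7% of features whose number is a multiple of 6, as that of NdhN is, were above 0 in 3 or fewer of the 6 samples. The values of 85.0% of such features and samples were 0 in WT, against 7.58% for other feature numbers, and 60.9% against 27.2% in psbs. Neither NdhS nor AT1G76450 lay on such a feature. Whether this pattern of feature numbers has a part in the low values of NdhN was not tested.

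The place of NdhN rested largely on the share of features at 0 in each sample. In the psbs samples above 0, 29.9% to 62.0% of features were lower than NdhN, against 14.04% to 14.31% in the WT samples above 0. The intensity of 0.00164 in psbs replicate 4 thus had 29.9% of features below it, while the higher intensity of 0.0235 in WT replicate 6 had 14.3%. Features at 0 made up most of those below it in both groups, 28.6% of all features in psbs replicate 4 and 13.1% in WT replicate 6. NdhN was 0 to 2.03 times the sample median in psbs and 0 to 0.0770 times in WT. After quantile scaling all 6 WT values of NdhN lay at the floor of the scale, a scaled value of 0.0559.

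**Figure D2:**
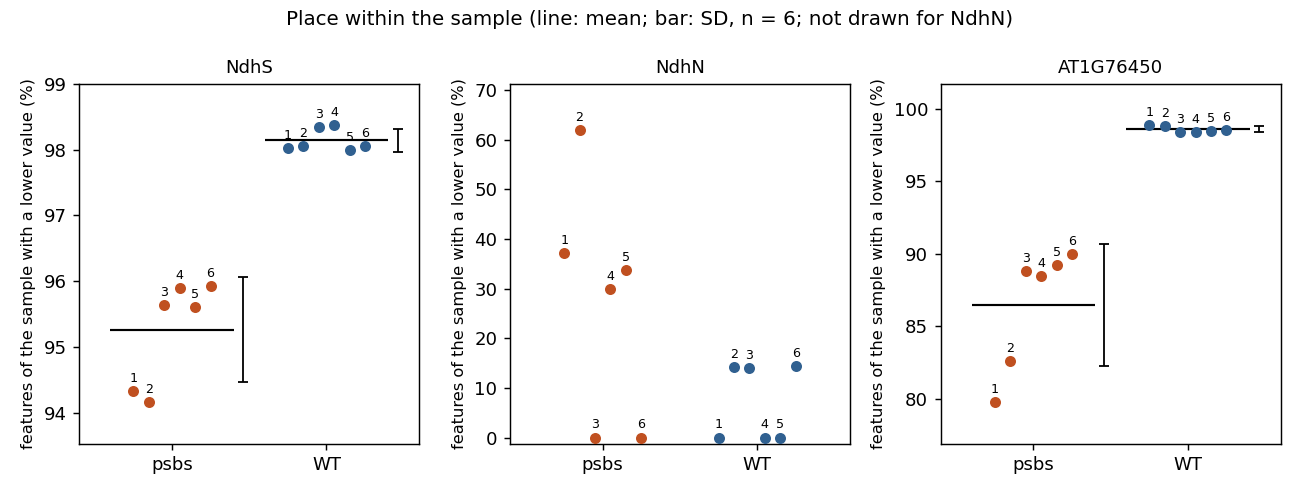
Percentage of the sample's features with a lower value than NdhS, NdhN and AT1G76450, in each sample with replicate numbers, psbs left and WT right; lines are means and bars are SD (n = 6), drawn for NdhS and AT1G76450 only, and the vertical axes differ between panels. NdhS lies between 94.2% and 95.9% in psbs and between 98.0% and 98.4% in WT, and AT1G76450 between 79.8% and 90.0% in psbs and between 98.4% and 98.9% in WT.

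On the quantile-scaled values psbs minus WT came, in log2 units, to -1.68 ± 0.14 (SE) for NdhS, -3.66 ± 0.20 for AT1G76450 and 0.84 ± 0.32 for NdhN. The median over all tested features was 0.05. Without psbs replicates 1 and 2 the differences were -1.51 for NdhS, -3.41 for AT1G76450 and 0.42 for NdhN. The value of NdhN without psbs replicate 2 alone was 0.57. All 6 WT values of NdhN lay at the floor with no spread, so its difference and SE depend on the floor and the scaling. With all samples its difference was 0.42 with a floor at the 10th percentile and 0.04 as deposited.

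AT1G76450 was lower in psbs under each of the 4 scalings tried, and NdhS under 3 of them. For AT1G76450 the log2 difference was -4.51 as deposited, -1.90 when each sample was centred on the median of its values above 0, and -4.82 after cyclic loess. For NdhS it was -1.69 as deposited and -2.51 after cyclic loess, but 0.92, higher in psbs, after median centring. For NdhN it was 0.04 as deposited, 0.46 after median centring and 0.16 after cyclic loess. The median of all tested features was -2.86 as deposited and -0.41 after median centring. NdhS was thus higher than that median by both of these scalings, although its intensity was lower in psbs.

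**Figure D3:**
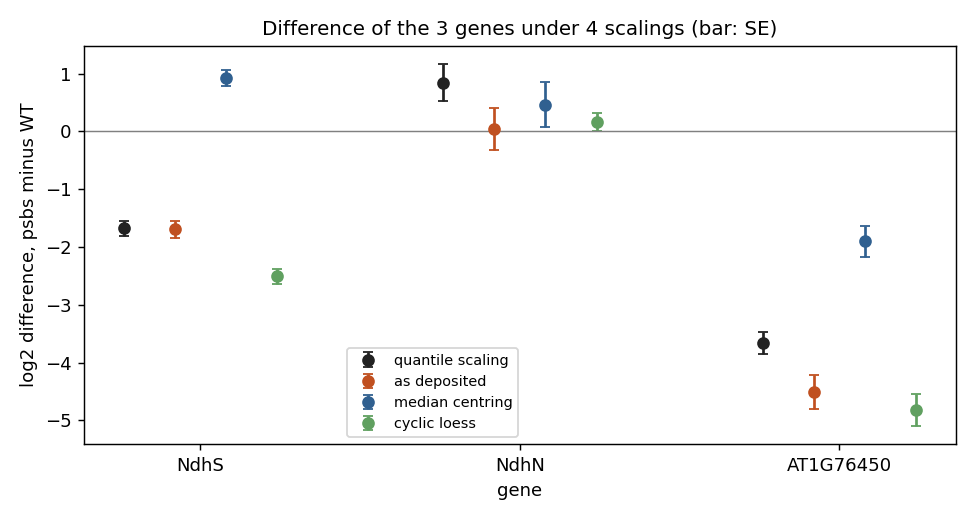
Log2 difference, psbs minus WT, of NdhS, NdhN and AT1G76450 under 4 scalings, with SE as bars. AT1G76450 lies below 0 under each of the 4 (-1.90 to -4.82), NdhS lies above 0 only after median centring (0.92), and NdhN lies between 0.04 and 0.84. After quantile scaling all WT values of NdhN lie at the floor.

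The background of calls was wide. Over all features limma called 55.3% at an adjusted p under 0.05 after quantile scaling, 26.2% higher and 29.1% lower in psbs. No call is given for NdhS, AT1G76450 or NdhN, since these genes were chosen with this contrast in view. Psbs samples all lay below all WT samples in deposited intensity for 67.3% of features and above them for 5.84%, and by place below for 22.8% and above for 17.6%. NdhS and AT1G76450 were among the features below by both measures, and NdhN overlapped by both. The shares called higher and lower were 7.38% and 73.0% as deposited, 20.6% and 36.0% after median centring and 19.2% and 24.3% after cyclic loess.

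Among the 674 tested features of a single gene, ordered by mean place, NdhS stood 25th in psbs and 12th in WT, and AT1G76450 stood 62nd in psbs and 10th in WT. NdhN stood 458th in psbs and 595th in WT. Both bright members thus came from the brightest few genes of the WT samples. The mean place of AT1G76450 differed by -12.1 percentage points, psbs minus WT, and 41.8% of these 674 features dropped at least as far. That of NdhS differed by -2.88 points, and 54.5% dropped at least as far. That of NdhN, with values at 0 counted as the lowest place, differed by 20.0 points, and 15.9% gained as much or more. It differed by 13.04 points without psbs replicate 2 and by 8.79 without psbs replicates 1 and 2. The median shift of the 674 was -5.96 points. A feature near the top has many places to lose and few to gain, so places at the top are close together even where intensities differ many-fold.

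**Figure D4:**
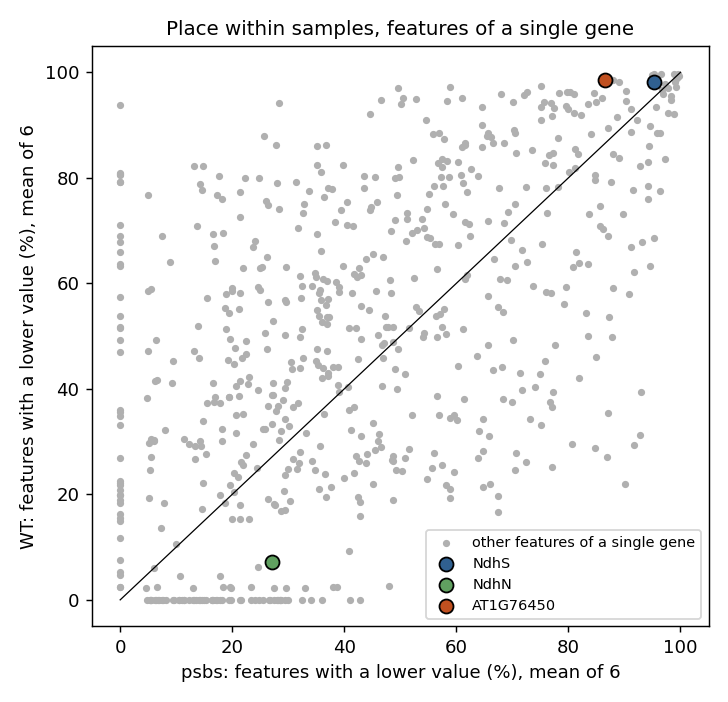
Mean percentage of features with a lower value in the 6 psbs samples (horizontal) and in the 6 WT samples (vertical) for the 674 tested features of a single gene, with the line of equal place. NdhS (95.3% in psbs, 98.1% in WT) and AT1G76450 (86.5% and 98.6%) lie near the upper end above the line, AT1G76450 further from it than NdhS. NdhN (27.1% and 7.09%) lies below the line.

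WT samples with consecutive replicate numbers were close to each other. In WT, AT1G76450 averaged 10.9 in replicates 1 and 2, 7.05 in replicates 3 and 4 and 6.66 in replicates 5 and 6, and no 2 such neighbours differed by more than 0.380. NdhS in WT averaged 6.26, 6.90 and 5.17 in the same pairs, with at most 0.208 between neighbours. The order of the pairs thus differed between both genes. In psbs, NdhS averaged 1.46, 2.21 and 2.05 and AT1G76450 averaged 0.198, 0.449 and 0.486 in these pairs. Neighbours in psbs differed by up to 0.255 for NdhS and 0.0638 for AT1G76450, more than the step between the pairs 3 and 4 and 5 and 6, so only replicates 1 and 2 formed a pair apart there. Should neighbouring numbers be repeat hybridizations, only 3 values in each group would be independent. The coefficient of variation was 19.1% in psbs and 12.9% in WT for NdhS, and 37.7% in psbs and 25.3% in WT for AT1G76450.

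The features of a single gene with the most similar places were sought as those with the smallest root mean square difference of place over the 12 samples, which joins level and difference. Features near the top of every sample come close to each other by this measure, whatever their fold difference in intensity. For NdhS these were AT2G46220, AT4G17070 and AT2G27290, with root mean square differences of 0.730, 1.295 and 1.46 percentage points, against a median of 55.5 over the 673 features compared. AT2G46220, the closest, was at 1.94 to 2.85 in psbs samples and at 4.13 to 8.52 in WT samples. AT4G17070 was at 0.851 to 3.09 in psbs samples and at 11.1 to 23.2 in WT samples, a wider gap in intensity at nearly the same places. AT2G27290 was at 1.63 to 4.87 in psbs samples and at 37.3 to 43.8 in WT samples.

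For AT1G76450 the closest was AT4G19900, with a root mean square difference of 1.67 percentage points. It was at 0.176 to 0.705 in psbs samples and at 6.63 to 8.54 in WT samples. CCL and AT5G65220 followed at 3.55 and 3.70 points. CCL was at 0.402 to 0.675 in psbs samples and at 2.22 to 4.63 in WT samples. No feature came as close to NdhN: AT1G66090, IQD22 and AT5G63290 differed from it by 13.6, 13.9 and 15.2 points. AT1G66090 was listed at 0 in 3 psbs and 5 WT samples, and AT5G63290 in 4 psbs and 6 WT samples.

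The rest of both families was hardly covered. Of 32 listed genes of NDH complex subunits only NdhS and NdhN had a feature to themselves, and of 20 listed PsbP, PsbQ and oxygen-evolving genes only AT1G76450 did. None of the other 30 NDH subunits and 1 of the other 19 PsbP and PsbQ relatives was named on a feature of several genes, which was not used. No member of the 4-gene list of PGR5-dependent cyclic electron flow, which also held PSBS itself, had one. No group result for the NDH complex or the PsbP family can therefore be given beyond the genes above. Of 5 leaf markers only LHB1B2, a light-harvesting protein, lay on such a feature, at 31.3 ± 2.90 in psbs and 12.2 ± 2.78 in WT (SD, n = 6 each). None of 8 seed, root and pollen markers did.

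Factors that build the NDH complex or express its genes were measured for 4 of 18 listed genes, of which 3 were above 0 in some sample. Of these 3, 1 was called lower and none higher (29.1% and 26.2% of all features), with a median log2 difference of -0.75. Cpn60beta4, a chaperonin subunit needed to fold the NDH subunit NdhH, was at 0 to 0.0291 in psbs samples, with 3 of 6 at 0, and at 0.299 to 0.383 in WT samples. The groups did not overlap in intensity but did by place, and Cpn60beta4 fell by 1.11 ± 0.31 (SE) on the log2 scale (limma adjusted p = 0.00886). With values at 0 taken as missing, which left 3 psbs samples, its difference was -0.51 and the call was lost (limma adjusted p = 0.0979).

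CRR21, an RNA editing factor for the plastid ndhD transcript, was at 0 to 0.128 in psbs samples, with 3 of 6 at 0, and at 0.347 to 0.572 in WT samples. The groups did not overlap in intensity but did by place. Its log2 difference after quantile scaling was -0.75 ± 0.57 (SE) and did not pass (limma adjusted p = 0.268). It was called lower without psbs replicates 1 and 2, at -1.53 (limma adjusted p = 0.0101), and as deposited, at -3.66 (limma adjusted p = 0.000318). With values at 0 missing it was called higher, at 0.58 (limma adjusted p = 0.0167), so its direction depended on how the 0 values were treated. CRR41, an assembly factor of the stromal part of the complex, was above 0 in a single sample, a psbs one at 0.0279. All 6 WT samples were at 0, and CRR41 was not called (limma adjusted p = 0.387). Like NdhN, CRR41 lay on a feature whose number is a multiple of 6. Of such features 75.5% were at 0 in every WT sample, against 5.41% of features with other numbers. Whether this pattern has a part in the 0 values of CRR41 was not tested. AT3G22690, on the same list, was at 0 in all 12 samples, and whether it has a role for the NDH complex was not checked. OTP85, another editing factor for ndhD, was not on the list and was added after its values were seen. It was at 0 to 0.0279 in psbs samples, with 2 of 6 at 0, and at 0 in every WT sample. Because its values were seen first, its difference is described without a test. After quantile scaling the log2 difference was 0.79 ± 0.26 (SE), with all 6 WT values at the floor. The difference was 0.24 as deposited, 0.46 after median centring and 0.37 with a floor at the 10th percentile, and cyclic loess left none.

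Other proteins of the thylakoid lumen, the compartment of PsbP, were measured for 6 of 34 listed genes. After quantile scaling 1 rose, 2 fell and 3 did not pass (26.2% and 29.1% of all features were called higher and lower), with a median log2 difference of -0.12. PSAN, the lumenal subunit of photosystem I that helps plastocyanin to dock, was at 16.3 to 36.5 in psbs samples and at 3.34 to 5.25 in WT samples. It rose by 2.24 ± 0.25 (SE) on the log2 scale (limma adjusted p = 7.38e-06), the opposite direction to AT1G76450, and was called higher under each of the 4 scalings. CHL, the plastid lipocalin, which protects thylakoid lipids under oxidative stress, was at 0 in all 6 psbs samples and at 0.177 to 0.243 in WT samples. It fell by 0.92 ± 0.12 (SE) on the floored log2 scale (limma adjusted p = 2.65e-05). With all psbs values at 0 the floor sets this size: it was -0.29 with a floor at the 10th percentile (limma adjusted p = 0.0262), -2.03 after median centring and -4.17 as deposited.

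AT5G35100 was at 0 to 0.0653 in psbs samples, with 3 of 6 at 0, and at 0.525 to 0.889 in WT samples. It fell by 1.96 ± 0.40 (SE) on the log2 scale (limma adjusted p = 0.00117), and with values at 0 missing by 1.06 (limma adjusted p = 0.000842). AT5G13410, AT1G74070 and AT5G46390 did not pass, with log2 differences of 0.33, 0.38 and -0.57 (limma adjusted p = 0.176, 0.105 and 0.27). Without psbs replicate 3 AT5G13410 was called higher, at 0.46 (limma adjusted p = 0.032). As deposited these 3 were called lower, at -3.15, -1.45 and -3.92, and median centring made AT1G74070 a higher call, at 1.16 (limma adjusted p = 0.00855), and AT5G46390 a lower one, at -1.46 (limma adjusted p = 0.0323).

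In deposited intensity 7 of the 9 tested genes of both lists had all psbs samples below all WT samples, beside 67.3% of all features. The exceptions were PSAN, which was higher in psbs, and CRR41. By place 2 of the 9, CHL and AT5G35100, lay wholly lower in psbs, beside 22.8% of all features. As deposited, 73.0% of all features were called lower and 7.38% higher, so calls made on that scale describe the array as a whole as much as these genes.

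**Figure D5:**
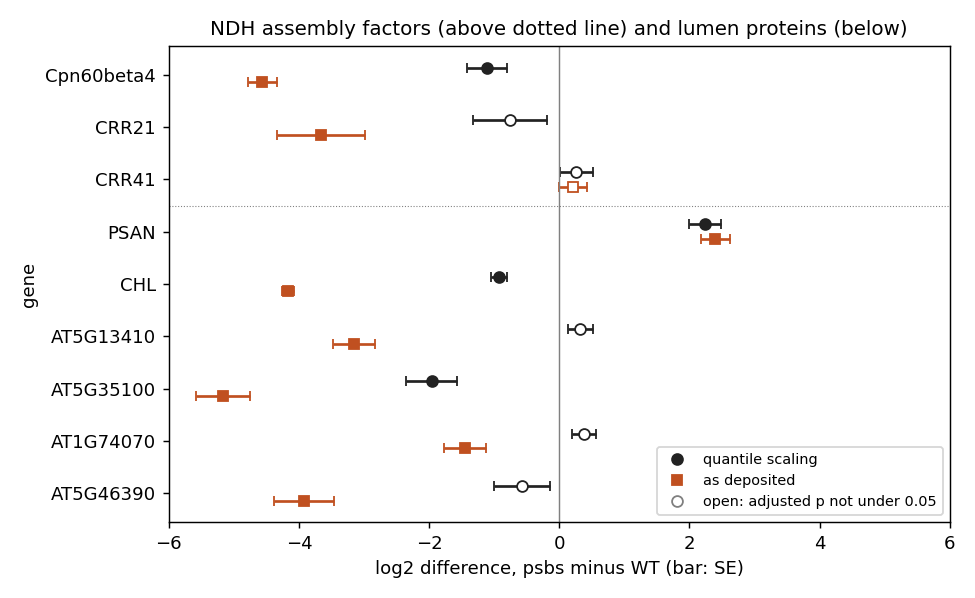
Log2 difference, psbs minus WT, with SE as bars, of the 3 tested NDH assembly and expression factors and the 6 tested thylakoid lumen proteins, after quantile scaling (circles) and as deposited (squares); open symbols have a limma adjusted p not under 0.05. PSAN lies above 0 on both scales (2.24 and 2.40), Cpn60beta4, CHL and AT5G35100 lie below 0 on both, and AT5G13410 and AT1G74070 change sign between the scales.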

How the data were processed

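The authors deposited 1 linear intensity per feature for each of 12 samples. How the arrays were scanned and scaled, and what a 0 stands for, is not given in the sources used. Groups and replicate numbers came from the sample titles. Of 692 features of a single gene, 690 matched a locus of TAIR10.1 through the platform annotation, which was used for names only. The 3 genes and the lists were chosen with earlier results of these data known.

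The columns were quantile normalized, with exact 0 values kept at 0. A floor was set at percentile 5 of all scaled values above 0 (0.0559) before log2 was taken, which understates differences of dim features. limma 3.58.1 in R 4.3.3 compared psbs with WT over 3359 features, with Benjamini-Hochberg adjustment and a threshold of 0.05. The 80 features with only 0 values stayed out. Scripts were checked on simulated data. Named were the 3 genes, every tested gene of the related lists, and for each of the 3 genes the 3 features with the most similar places; OTP85 was named outside this rule. Alternatives changed the scaling, the floor, the treatment of 0 values, the filter, the replicate block, consecutive numbers and the samples left out. Counts for the lists of assembly factors and lumen proteins under these alternatives were added after the data were seen. Plots were made in Python 3.11.15 with matplotlib 3.10.9.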

Additional observations from a re-analysis of the deposited data

Results flagged for a closer look

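NdhN in psbs replicate 2 had an intensity of 0.0471, against 0 to 0.00996 in the other 5 psbs samples, a gap of 0.789 of the group's whole range. It was the only sample far from the rest of its group among 17 groups of values with any spread, made from 3 genes, 2 groups and 3 measures. Chance picks about 5% of such groups.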

How the results depend on the processing

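The log2 difference of AT1G76450, -3.66, was negative under all 21 alternatives, but only the other scalings could have turned its sign. The floor, the treatment of 0 values, the filter, the replicate block and the averaging of consecutive numbers left it unchanged. Leaving samples out could not turn it, since the groups did not overlap. This difference was -4.51 as deposited, -1.90 after median centring and -4.82 after cyclic loess, and -3.73 to -3.54 with 1 sample left out. That of NdhS, -1.68, turned to 0.92 after median centring and was -2.51 after cyclic loess, with -1.72 to -1.61 when 1 sample was left out. Centring adds the same amount to every feature above the floor. That of NdhN, 0.84, was 0.039 as deposited and 0.16 after cyclic loess, 0.42 with a floor at the 10th percentile, 1.27 with values at 0 missing, and 0.57 to 1.01 with 1 sample left out. It had no value where only features above 0 in all samples were used. The count of called features, 1859, stayed within 1.5 times of it under 20 of 21 alternatives and was 1102 with only features above 0 in all samples, where fewer were tested. Its balance moved: 47.4% of calls were higher after quantile scaling, 9.18% as deposited, 36.3% after median centring, 62.0% with values at 0 missing and 64.5% with only features above 0 in all samples. Called assembly factors numbered 1, against 2 as deposited, 2 without psbs replicates 1 and 2 and 0 with only features above 0 in all samples, where none of them was left to test. With values at 0 missing the count was also 1, but it was CRR21 called higher and not Cpn60beta4 called lower. Called lumen proteins numbered 3, against 6 as deposited, 5 after median centring and 1 with only features above 0 in all samples, where 3 were tested. Other NDH subunits and PsbP relatives were not on a usable feature, so their counts could not be made. With the replicate number as a block 1833 features were called, and no call of a listed gene changed. With consecutive numbers averaged 1585 were called, and again no call of a listed gene changed. Same-numbered psbs and WT samples deviated together with correlations of 0.0569 to 0.154. Of the psbs samples 6 of 6 correlated best with their own number in WT, a hint from the data and not from the design. Neighbours in WT correlated more strongly, at 0.459 (1 and 2), 0.274 (3 and 4) and 0.43 (5 and 6). In psbs these correlations were 0.385, 0.0682 and 0.0749. Whether neighbours were repeat hybridizations was not tested. Dim values near 0, such as those of NdhN, limit what can be said of its direction.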
